A study of Mus musculus with 18 samples.

Results

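*Col15a1*, which encodes the chain of collagen XV, was described together with 9 other genes of the basement membrane, *Col18a1*, *Col4a1*, *Col4a2*, *Lama2*, *Lama4*, *Lamb1*, *Lamc1*, *Nid1* and *Nid2*. *Col15a1* was chosen by the difference of its CPM between LAP2alpha knockout (KO) and wildtype (WT) myoblasts in these libraries, and the others were chosen as structural genes of the basement membrane, to ask whether they share that difference. The 10 genes were found by Ensembl identifier among the 19153 genes of the deposited tables, and all 10 passed the filter on low counts, which 17672 genes passed. The lowest value among them, that of *Lama4* in a WT D0 library, still rested on 10 expected counts.

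All libraries came from immortalized mouse myoblasts with a p53 knockout. The KO cells had been transfected with a Cas9 plasmid carrying an sgRNA against LAP2α, a nucleoplasmic protein encoded by *Tmpo*, and the WT cells with the plasmid lacking an sgRNA, and both were sorted in bulk for EGFP, so that neither population is a single clone. Cells were grown on plates coated with collagen I and were harvested while proliferating in 20% serum (Prol), on reaching confluence in 20% serum (D0), or after 48 h in 5% serum (D2), with 3 replicate libraries in each of the 6 groups, 18 in all. The labels do not say that the replicates were separate cultures, so the p-values measure only the spread between these samples.

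The basement membrane is a thin sheet of extracellular matrix that surrounds each muscle fibre and underlies epithelia and endothelia. Laminins, trimers of an α, a β and a γ chain, bind receptors such as integrin α7β1 and dystroglycan on the muscle cell surface, collagen IV forms a covalently crosslinked network, and the nidogens link the laminin and collagen IV networks. Collagens XV and XVIII are related proteoglycans that lie in or next to the basement membrane. In muscle, laminins with the α2 chain, encoded by *Lama2*, are the main laminins of the fibre surface, and their loss causes a congenital muscular dystrophy.

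The libraries held 26437823 to 41619016 expected counts. Values are given in CPM, expected counts relative to the library total after scaling with TMM factors. A difference was called when it combined an unadjusted p under 0.05 with a change exceeding 1.5-fold and a level of 10 CPM or more in any library compared, which are the criteria referred to from here on; p-values adjusted over all genes are given beside the calls. *Tmpo* was lower in KO by 0.28, 0.25 and 0.21 on the log2 scale at Prol, D0 and D2, and no difference met the criteria; its transcripts were counted together, so LAP2α was not separated from the other LAP2 isoforms. Of the myoblast and early muscle markers, 7 of 8 were measured, and their summed level was 44.5 to 76.1 CPM in the Prol and D0 libraries. At D2 it was 905 to 1539 CPM in WT and 619 to 747 CPM in KO, so the genotypes did not overlap there. The part of this difference in the KO and WT values of the basement membrane genes at D2 was not tested. Myod1, a defining factor of the myoblast lineage, was low before differentiation, at 0.74 to 5.88 CPM. *Myf5*, on the same list, was at 11.6 to 37.1 CPM over the 18 libraries, and *Pax7* was not analysed here. Summed endothelial markers (5 of 8 measured) reached at most 4.26 CPM and summed Schwann cell markers (3 of 5) at most 4.11 CPM, and *Cdh5*, *Emcn*, *Cldn5*, *Sox10* and *Foxd3* were not analysed here. In bulk RNA, fewer cells of a type and less RNA per cell cannot be told apart.

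*Col15a1* (ENSMUSG00000028339) is annotated at chr4:47208161-47313167 on the plus strand (GRCm38, GENCODE M21). In the WT libraries numbered 1, 2 and 3, it was at 4.24, 7.81 and 11.96 CPM in Prol, at 10.3, 9.52 and 13.0 CPM at D0, and at 29.3, 39.9 and 56.7 CPM at D2. In the KO libraries with the same numbers it was at 35.5, 22.2 and 19.2 CPM in Prol, at 59.3, 31.2 and 25.1 CPM at D0, and at 180.2, 94.6 and 97.8 CPM at D2. Every KO library was above every WT library of its state, a pattern found in that direction in 1.85% of all genes at Prol, 1.11% at D0 and 2.35% at D2. Since *Col15a1* was chosen for this difference, its values between the genotypes are a description and no test is given.

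The mean level of *Col15a1* was 8.005 ± 3.86 CPM (SD, n = 3) in WT Prol, 10.97 ± 1.84 (SD, n = 3) in WT D0, 25.6 ± 8.66 (SD, n = 3) in KO Prol, 38.5 ± 18.2 (SD, n = 3) in KO D0, 42.0 ± 13.8 (SD, n = 3) in WT D2 and 124 ± 48.6 (SD, n = 3) in KO D2. In this order from the lowest to the highest group, the libraries of neighbouring groups overlapped except between WT D0 and KO Prol and between WT D2 and KO D2. Proliferating KO cells thus had more *Col15a1* RNA than confluent WT cells, in all 3 libraries, and confluent KO cells overlapped with WT cells on day 2. The plot of *Col15a1* by library shows these levels.

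**Figure D1:**
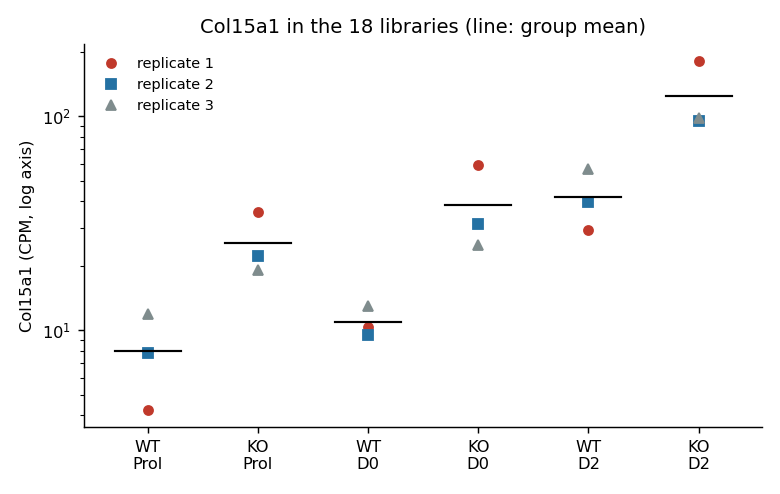
*Col15a1* in CPM (log axis) in the 18 libraries, by group and replicate number, with a line at each group mean. The KO libraries lie above the WT libraries of their state, and both genotypes are highest at D2, with means of 42.0 CPM in WT and 124 CPM in KO.

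The log2 fold change of *Col15a1* between KO and WT was 1.75 (SE 0.40) at Prol, 1.73 (SE 0.40) at D0 and 1.55 (SE 0.40) at D2, and 1.68 (SE 0.23) on average over the states, which is 3.20-fold. Between libraries of the same replicate number, it was 3.06, 1.51 and 0.68 at Prol, 2.52, 1.71 and 0.94 at D0 and 2.62, 1.24 and 0.79 at D2 for replicates 1, 2 and 3. KO was above WT in 9 of 9 of these pairs, as in 1.10% of all genes, and the difference was largest in replicate 1 and smallest in replicate 3 in each state. Without the replicate 1 libraries the average over the states was 1.15, and at Prol it was 1.10 in place of 1.75.

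Between Prol and D2, *Col15a1* rose in both genotypes. The log2 fold change was 2.46 (SE 0.40, adjusted p = 0.00023, limma, Benjamini-Hochberg over all genes) in WT, which is 5.51-fold, and 2.26 (SE 0.40, adjusted p = 0.000472, limma) in KO, which is 4.79-fold. It was higher at D2 in 3 of 3 same-numbered pairs of each genotype, by 2.24 to 2.79 in WT and by 2.09 to 2.35 in KO on the log2 scale. The KO value minus the WT value was -0.20 (SE 0.57), given as a description. Between Prol and D0 the log2 fold changes were 0.57 (SE 0.40) in WT and 0.54 (SE 0.40) in KO, and neither met the criteria, except that the WT change did when WT Prol replicate 3 was left out. The WT Prol libraries enter both the genotype difference at Prol and the WT change to D2.

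None of the other 9 genes met the criteria for a genotype difference in any state or on average over the states, in limma with or without voom weights. Over all genes they were met by 0.113% at Prol, 0.209% at D0, 0.464% at D2 and 0.385% for the average. An unadjusted p under 0.05 alone was reached by 1.11%, 1.47%, 1.96% and 2.3% of all genes and by 0 of the 9. The intervals were wide. The 95% interval for the average log2 fold change ran from -0.38 to 1.65 for *Col4a1*, from -0.57 to 1.72 for *Col4a2* and from -0.17 to 1.602 for *Nid1*. That of *Col15a1*, from 1.18 to 2.17, overlapped each of them. *Col15a1* was chosen for a large difference, so its 1.68 can be too high, and no gene was tested against it. The interval ran from -0.71 to 0.22 for *Col18a1*, from -0.64 to 0.84 for *Lamb1* and from -0.70 to 0.90 for *Lamc1*. For *Nid2* it ran from -0.81 to 0.90, for *Lama2* from -1.02 to 0.77 and for *Lama4* from -1.63 to 1.09. With the replicate number as a block, described next, the intervals of *Col4a1*, *Col4a2* and *Nid1* ran from 0.28 to 0.99, from 0.18 to 0.97 and from 0.32 to 1.11. That of *Col15a1* ran from 1.19 to 2.16 with the block.

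Most libraries of the same replicate number varied together, and for these genes the number accounted for much of the spread. The replicate number was therefore also fitted as a block. With it, *Nid1* and *Col4a1* met the criteria for the average over the states, 2 of 9 genes against 0.645% of all genes, and *Nid1*, *Col4a1* and *Col4a2* were higher and *Col18a1* lower in KO at D2, 4 of 9 against 1.21% of all genes. *Col4a1* met them also at D0, 1 of 9 against 0.43%, and none of the 9 did at Prol, against 0.255%. No adjusted p of these calls was under 0.05; they were 0.364 for *Nid1* and 0.38 for *Col4a1* for the average and 0.571 to 0.941 at D2 (limma, Benjamini-Hochberg). The 4 calls at D2 fell to *Nid1* alone without WT D2 replicate 2, KO D2 replicate 1 or KO D2 replicate 2, and to *Col4a1* and *Nid1* without WT D2 replicate 3. The call at D0 was absent without WT D0 replicate 2, KO D0 replicate 1 or KO D0 replicate 2, and *Col4a1* did not meet the criteria for the average without the replicate 2 library of KO Prol, WT D0, WT D2 or KO D2.

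**Figure D2:**
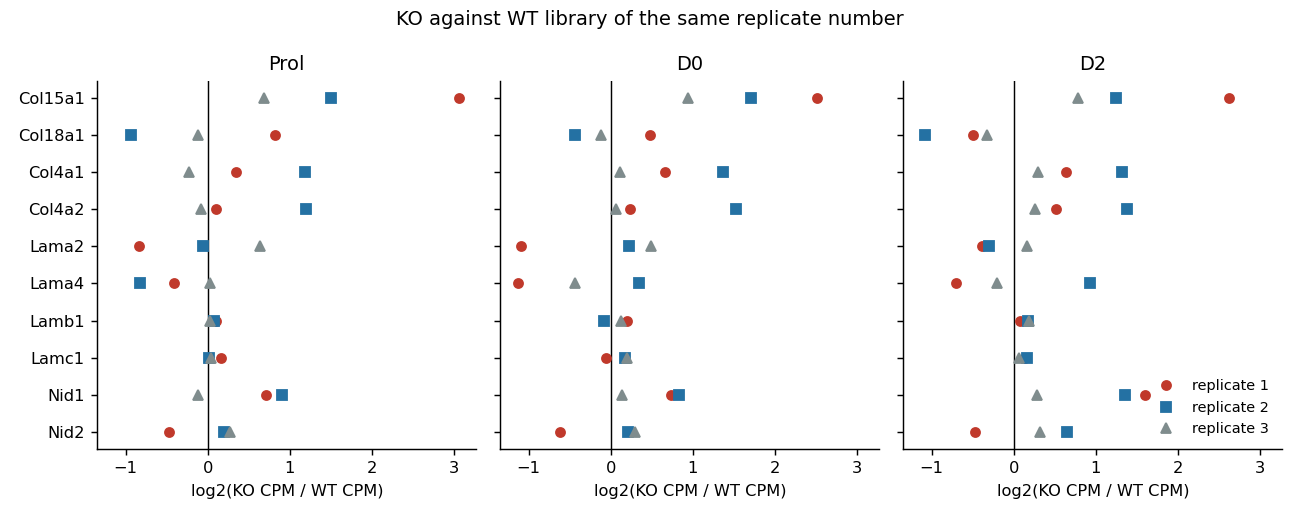
Log2 ratio of the CPM between KO and WT libraries that share a replicate number for the 10 genes at Prol, D0 and D2. *Col15a1* lies to the right of 0 in all 9 pairs (0.68 to 3.06), *Nid1*, *Col4a1* and *Col4a2* in 8 of 9, and *Lamb1* and *Lamc1* lie between -0.08 and 0.20.

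Counted by pairs of the same number, KO was above WT in 8 of 9 for *Col4a1*, *Col4a2*, *Nid1*, *Lamb1* and *Lamc1*, 6 of 9 for *Nid2*, 4 for *Lama2*, 3 for *Lama4* and 2 for *Col18a1*; 8 or 9 of 9 was found in 4.97% of all genes. The medians over the 9 pairs were 0.73 on the log2 scale for *Nid1*, 0.63 for *Col4a1* and 0.26 for *Col4a2*, compared with 1.51 for *Col15a1*. The 8 pairs of *Lamb1* and *Lamc1* differed by little, with medians of 0.10 and 0.14. Where *Col15a1* had its largest difference in replicate 1, *Col4a1* and *Col4a2* had theirs in replicate 2 in each state, at 1.19 to 1.37 for *Col4a1* on the log2 scale.

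*Col18a1*, which encodes the chain of collagen XVIII, the closest relative of collagen XV (chr10:77052178-77166548, minus strand), lay in a range of 11.002 to 36.96 CPM over the 18 libraries. Its mean was 18.3 ± 5.07 CPM (SD, n = 3) in WT Prol and 18.2 ± 9.12 (SD, n = 3) in KO Prol, and at D0 it was 20.6 ± 5.19 (SD, n = 3) and 22.1 ± 13.0 (SD, n = 3). At D2 the WT libraries were at 26.9, 23.2 and 22.5 CPM and the KO libraries at 19.1, 11.002 and 17.97 CPM. The D2 groups did not overlap and KO was the lower, as in either direction in 6.17% of all genes. This difference, -0.63 (SE 0.38) on the log2 scale, was opposite in direction to that of *Col15a1* and met the criteria only with the block, when the D2 groups were fitted alone, or without the replicate 1 libraries. Neither genotype's change to D2 met them (0.44, SE 0.38, in WT and -0.12, SE 0.38, in KO).

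*Col4a1* and *Col4a2* encode the α1 and α2 chains that form the most widespread collagen IV. They lie head to head on chromosome 8 of GRCm38, *Col4a1* on the minus strand from 11198423 to 11312826 and *Col4a2* on the plus strand from 11312805 to 11449287 (GENCODE M21), so that their first exons overlap by 22 bases, on opposite strands of what the study describes as strand-specific libraries. The bases shared by both first exons, and a stretch upstream of *Col4a2* inside the annotated *Col4a1* gene, are printed from the plus strand. Both genes start here and are transcribed in opposite directions (RefSeq sequence of GRCm38.p6).
Bases covered by the first exons of both genes, chr8:11312805-11312826: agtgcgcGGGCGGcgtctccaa
Bases around a CCAAT, chr8:11312761-11312790: ccgaggagctccCCAATttgttggcgctgc
Capitals mark a GC box (GGGCGG) and a CCAAT box. The CCAAT starts 32 bases upstream of the annotated 5′ end of *Col4a2*. Searched on both strands, CCAAT was found in 37.4% and GGGCGG in 35.6% of 32817 promoter windows of 300 bases, so either match is common, and the letters alone say nothing of binding.

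Over the 18 libraries, log2 *Col4a1* and *Col4a2* had a Pearson r of 0.996, given as a description across libraries that share group and replicate number. Per kilobase of exon, the *Col4a1* level was 1.18 to 1.87 times that of *Col4a2* in each of the 18 libraries, with a mean of 1.52 ± 0.20 (SD, n = 18). In WT Prol, D0 and D2, *Col4a1* was at 155.6, 41.4 and 72.05 CPM, at 156.4, 23.5 and 60.2 CPM, and at 518.9, 88.5 and 146.5 CPM in replicates 1, 2 and 3. In KO it was at 196.9, 94.4 and 61.7 CPM, at 247.0, 61.0 and 64.9 CPM, and at 805.5, 221.4 and 180.6 CPM. Replicate 1 was the highest library in all 6 groups, and the genotypes overlapped in every state. For *Col4a2*, too, replicate 1 was the highest library in all 6 groups, and it ranged from 11.2 CPM in WT D0 replicate 2 to 557.2 CPM in KO D2 replicate 1.

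For all 4 laminin genes the KO and WT libraries overlapped in every state. *Lamb1* and *Lamc1*, which encode the β1 and γ1 chains found in most laminin trimers (chr12:31265234-31329644, plus strand, and chr1:153218922-153332786, minus strand), were at means of 119 to 172 CPM and 178 to 218 CPM in the 6 groups. Their average log2 fold change between KO and WT was 0.10 (SE 0.35) for *Lamb1* and 0.10 (SE 0.38) for *Lamc1*. Both varied more with the replicate number than with the group. *Lamc1*, for example, was at 388.5, 93.4 and 116.0 CPM in WT D2 and at 428.8, 104.2 and 121.7 CPM in KO D2, with replicate 1 far above the others in both. Their Pearson r over the libraries, as a description, was 0.894.

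Of the α chains, both on chromosome 10, *Lama2* (chr10:26980036-27619758, minus strand) was at 28.7, 8.004 and 15.8 CPM in WT Prol, 51.9, 5.90 and 15.2 CPM in WT D0 and 55.0, 20.0 and 25.7 CPM in WT D2. The KO libraries were at 16.1, 7.66 and 24.6 CPM, 24.4, 6.89 and 21.4 CPM, and 42.1, 16.3 and 28.9 CPM. The genotypes overlapped in every state, and the average log2 fold change was -0.13 (SE 0.42). *Lama4* (chr10:38965515-39110188, plus strand), whose α4 chain is typical of vessels, nerve and fat and is also found in developing muscle, was low before differentiation, at 0.75 to 2.93 CPM in WT Prol and 0.42 to 2.20 CPM in KO Prol. At D2 it was at 106.8, 9.52 and 8.37 CPM in WT and at 65.5, 18.1 and 7.24 CPM in KO, so that replicate 1 was again the highest and the genotypes overlapped. At D2, summed endothelial markers reached 4.26 CPM and summed Schwann cell markers 4.11 CPM. Summed adipocyte markers were at 6.24 to 22.9 CPM there, and summed smooth muscle and pericyte markers at 776 to 1856 CPM. In the latter list, over the 18 libraries, *Acta2* reached 1415 CPM and *Pdgfrb* 361 CPM, but *Rgs5* only 1.57 and *Kcnj8* 0.42 CPM. The part of any of these cell types in the level of *Lama4* was not tested.

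The nidogen genes, *Nid1* (chr13:13437551-13512269) and *Nid2* (chr14:19751265-19811787), both on the plus strand, had different levels over the states. *Nid1* was at 160.6, 68.0 and 133.7 CPM in WT Prol, 185.5, 35.9 and 95.8 CPM in WT D0 and 235.7, 72.8 and 106.6 CPM in WT D2. In KO it was at 263.2, 126.8 and 123.3 CPM, 308.6, 63.9 and 105.4 CPM, and 716.3, 186.3 and 130.1 CPM. KO was above WT in each pair but replicate 3 at Prol, and the groups overlapped in every state, since the WT replicate 1 library exceeded KO libraries 2 and 3. *Nid1* had the largest genotype difference after *Col15a1*, 0.72 (SE 0.42) on average, and 1.08 (SE 0.72) at D2.

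*Nid2* was at 99.5, 43.1 and 58.9 CPM in WT Prol, 190.5, 30.4 and 50.3 CPM in WT D0 and 1141.8, 214.4 and 243.4 CPM in WT D2. In KO it was at 72.03, 49.7 and 71.4 CPM, 124.0, 35.3 and 61.9 CPM, and 825.9, 335.0 and 303.7 CPM. Its average difference between the genotypes was 0.04 (SE 0.40). Per kilobase of exon, *Nid2* was at 0.76 ± 0.15 (SD, n = 3) times the *Nid1* level in WT Prol and at 4.50 ± 1.78 (SD, n = 3) times in WT D2, and in KO at 0.56 ± 0.21 (SD, n = 3) and 2.36 ± 0.79 (SD, n = 3) times. The more abundant nidogen RNA was therefore *Nid1* in all 6 Prol libraries and *Nid2* in all 6 D2 libraries.

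**Figure D3:**
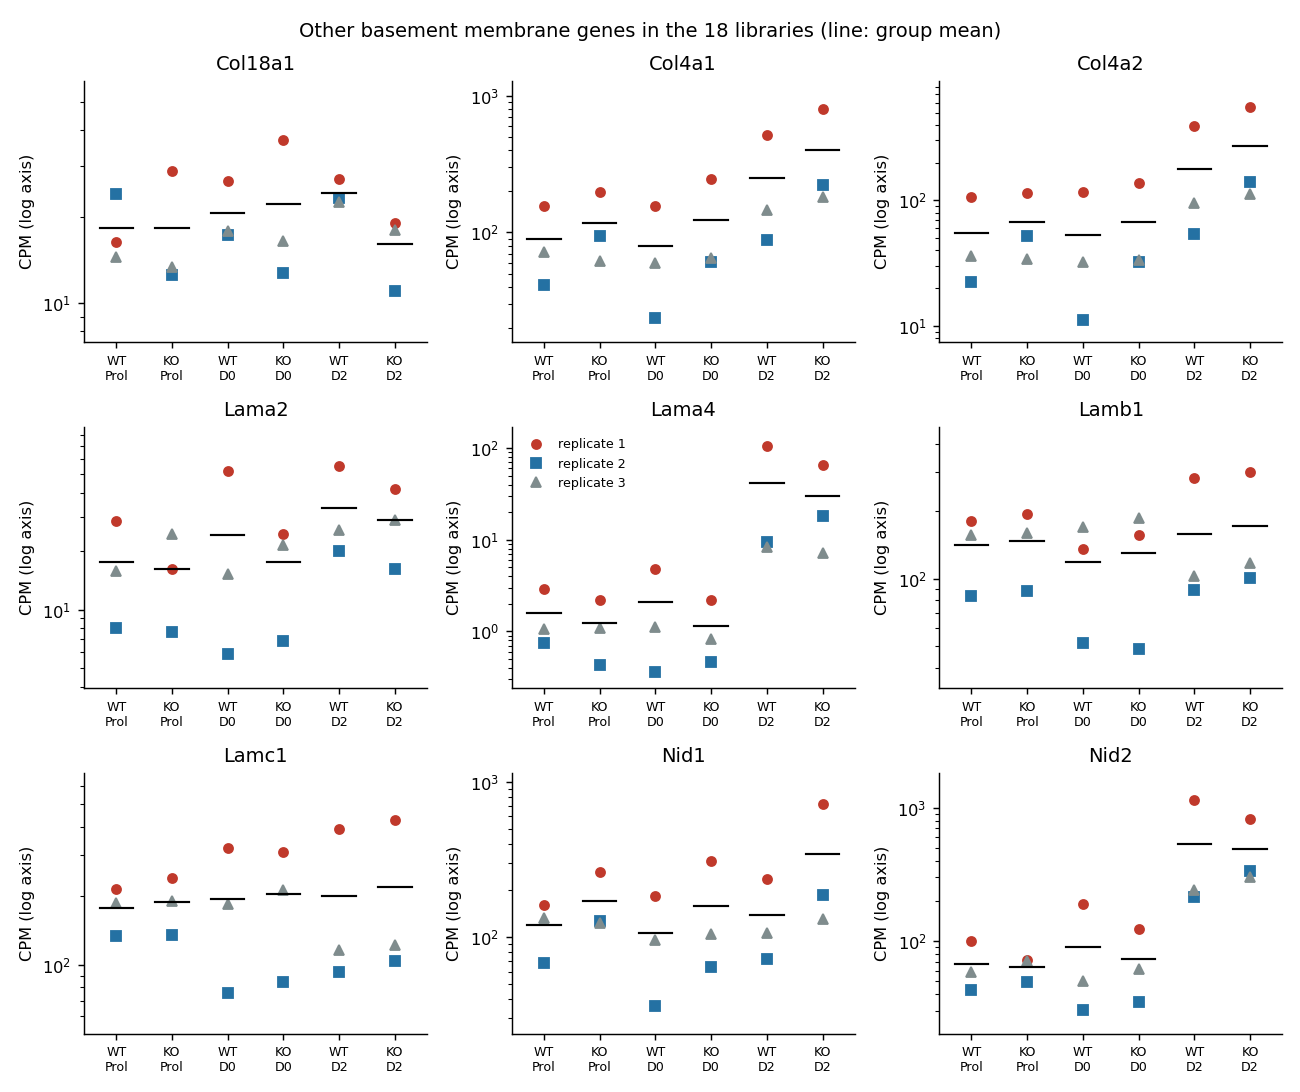
CPM (log axis, a separate scale for each gene) of the other 9 genes in the 18 libraries, by group and replicate number, with a line at each group mean. Replicate 1 is the highest library in all 6 groups for *Col4a1*, *Col4a2*, *Lama4*, *Lamc1*, *Nid1* and *Nid2*, and the genotypes overlap except for *Col18a1* at D2.

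The share of the variation of log2 CPM that went with the replicate number was 79.2% for *Lamc1*, 71.1% for *Lamb1*, 63.1% for *Lama2*, 60.1% for *Nid1*, 52.2% for *Col4a2* and 51.1% for *Col4a1*, compared with a median of 23.2% over all genes, of which 21.6% were over 50%. For *Lama4* and *Nid2* it was 23.5% and 22.1%, and the group took 71.6% and 72.03%. For *Col15a1*, whose choice by the genotype difference favours a high share of the group, they were 89.8% for the group and 0.485% for the replicate number. Its replicate 1 libraries were below the group mean in WT (by -0.79, -0.07 and -0.47 on the log2 scale at Prol, D0 and D2) and above it in KO (0.52, 0.72 and 0.60), so that the number had no common direction over the 6 groups. Replicate 1 was highest in all 6 groups for 6 of the 10 genes, against 12.4% of all genes, and in 3 of 6 groups for *Col15a1*. On average over the groups, replicate 1 exceeded the group mean by 0.40 for *Col18a1* to 1.58 for *Lama4* on the log2 scale, and by 0.086 for *Col15a1*.

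The fibroblast marker *Col1a1*, the chain of the main interstitial collagen, moved with the same libraries: in WT D2 it was at 12263, 1797 and 2351 CPM and in KO D2 at 13453, 3754 and 3182 CPM, and replicate 1 was its highest library in all 6 groups. The sum of the other fibroblast markers spanned less at D2, 253 to 309 CPM in WT and 249 to 448 CPM in KO, so *Col1a1* does not stand for the whole list. The summed level of the 8 of 9 fibroblast markers measured was 304 to 4189 CPM in the Prol and D0 libraries and 2074 to 13900 CPM at D2, and without *Col1a1* it was 30.6 to 108 and 249 to 448 CPM. *Pdgfra*, *Dcn* and *Dpt* met the criteria for a rise to D2 in both genotypes, by 2.00, 8.08 and 8.53 on the log2 scale in WT. A rise was called in 10.8% of all genes in WT and 11.3% in KO. Over the 18 libraries *Dcn* was as low as 0.016 CPM and *Dpt* 0.040 CPM. These levels are under 3 expected counts, where the size of a rise depends on the added 0.5 count. *Col1a1* also met the criteria for a rise, *Cd34* did not, and *Thy1*, *Lum* and *Pi16* were under 10 CPM in every library. The labels give no lane, batch or date, and the part of these differences between libraries in the results for the basement membrane genes was not tested.

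Between Prol and D2, *Col15a1*, *Lama4* and *Nid2* rose in both genotypes, 3 of 10 genes. Of all genes, 10.8% met the criteria for a rise and 12.8% for a fall in WT, 11.3% and 13.7% in KO, and 23.6% and 24.9% in either direction. *Lama4* rose by 3.94 (SE 1.11, adjusted p = 0.0128, limma) in WT and by 4.35 (SE 1.11, adjusted p = 0.00658, limma) in KO on the log2 scale. In WT the call was lost without WT D2 replicate 1, when no library reached 10 CPM for *Lama4* and the log2 fold change was 2.75. *Nid2* rose by 2.63 (SE 0.70, adjusted p = 0.00924, limma) in WT and by 2.79 (SE 0.70, adjusted p = 0.00598, limma) in KO. Both were higher at D2 in 3 of 3 same-numbered pairs of each genotype, and their D2 libraries were all above their Prol libraries, as in 23.0% of all genes in WT and 25.1% in KO.

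*Col4a1* and *Col4a2* were also higher at D2 in every pair, but the spread between libraries was larger than for *Lama4* relative to the change. Their log2 fold changes were 1.29 (SE 0.83) and 1.4999 (SE 0.93) in WT and 1.604 (SE 0.83) and 1.81 (SE 0.93) in KO, and none met the criteria. Without the replicate 1 libraries both met them in both genotypes, and in KO they also did without KO Prol replicate 1 or KO D2 replicate 3, or when only the KO Prol and KO D2 groups were fitted. In KO, where the replicate numbers paired the libraries, the block gave 7 of 10 genes higher at D2 against 13.0% of all genes, the additional ones being *Col4a1* (adjusted p = 0.000315, limma), *Col4a2* (adjusted p = 0.000243, limma), *Lama2* (0.90, adjusted p = 0.0402, limma) and *Nid1* (0.69, adjusted p = 0.0894, limma). Of these, *Lama2* was lost without KO Prol replicate 1 or KO D2 replicate 2, and *Nid1* without either of them, KO Prol replicate 3 or KO D2 replicate 1.

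*Lamb1* and *Lamc1* had log2 fold changes of 0.04 (SE 0.61) and -0.11 (SE 0.65) in WT and 0.12 (SE 0.61) and -0.06 (SE 0.65) in KO, with 95% intervals from -1.25 to 1.33 and from -1.49 to 1.27 in WT. In both genotypes replicate 1 went up and replicate 3 went down for both genes, so the pairs did not move one way. *Lama4* RNA, in contrast, differed 15.4-fold between the states in WT and 20.4-fold in KO. Per kilobase, *Lama2* was at 8.68 ± 2.01 (SD, n = 3) times the *Lama4* level in WT Prol and 1.40 ± 0.96 (SD, n = 3) times in WT D2, and at 11.8 ± 5.84 (SD, n = 3) and 1.36 ± 1.38 (SD, n = 3) times in KO.

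**Figure D4:**
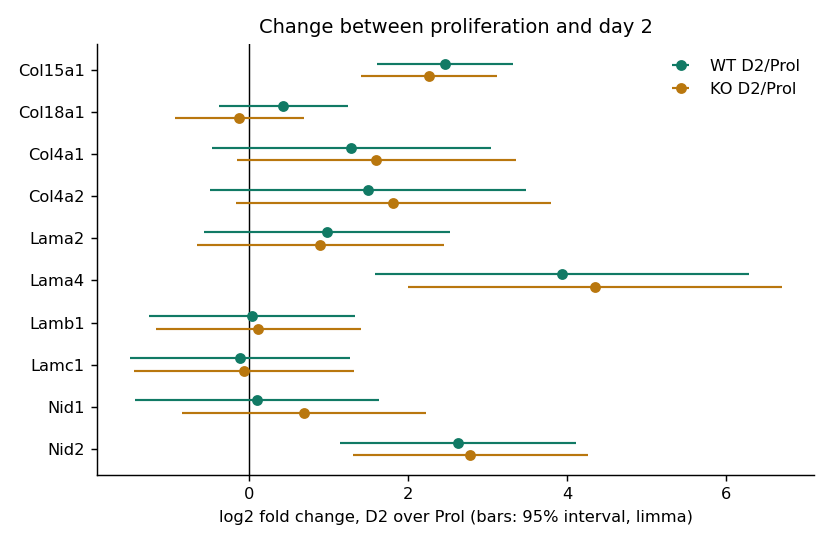
Log2 fold change between Prol and D2 in WT and KO myoblasts for the 10 genes, with 95% intervals from the limma fit of 6 groups. *Col15a1*, *Lama4* and *Nid2* have intervals above 0 in both genotypes, and *Lamb1* and *Lamc1* lie at -0.11 to 0.12.

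For the genotype difference of the change to D2, none of the 9 genes met the criteria, which 0.232% of all genes did (0.945% at an unadjusted p under 0.05 alone). The values ranged from -0.55 (SE 0.54) for *Col18a1* to 0.58 (SE 1.02) for *Nid1*, and no p was under 0.05 with or without the block. Between Prol and D0, none of the 10 genes met the criteria in WT or in KO, against 0.226% and 0.108% of all genes, with an unadjusted p under 0.05 alone in 384 and 198 of all genes and 0 of the 10, and with log2 fold changes from -0.40 for *Nid1* to 0.57 for *Col15a1* in WT and from -0.33 for *Nid1* to 0.54 for *Col15a1* in KO.

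**Figure D5:**
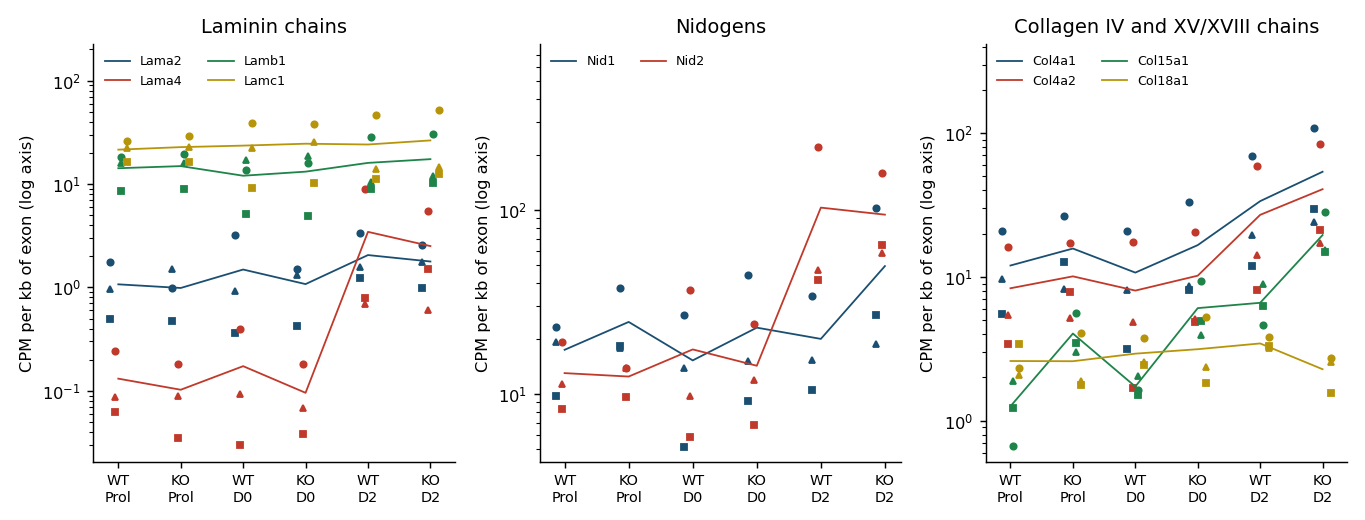
Levels per kilobase of exon (CPM per kb, log axis) of the laminin, nidogen and collagen chains by group, with points for libraries (circle, square and triangle for replicates 1, 2 and 3) and lines through group means. *Lama4* has a mean of 0.13 ± 0.098 CPM per kb (SD, n = 3) in WT Prol and 3.44 ± 4.68 (SD, n = 3) in WT D2, with replicate 1 at 8.85. The *Nid2* mean is above the *Nid1* mean at D2 in both genotypes and at D0 in WT. In WT D0 the means are 17.5 ± 16.9 and 15.2 ± 10.8 CPM per kb (SD, n = 3), and in replicate 3 *Nid2* is the lower (9.72 against 13.8).

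Of 27 other basement membrane components, 23 were measured. The criteria for a genotype difference were met by 1 of the 23 in each of Prol, D0 and the average, against 0.113%, 0.209% and 0.385% of all genes. At D2 they were met by 0 of the 23, against 0.464%, and 3 had an unadjusted p under 0.05, against 1.96%. The gene called was *Lama5*, the laminin α5 chain of mature epithelial and vascular basement membranes, and it was lower in KO. *Lama5* was at 48.5, 51.2 and 43.0 CPM in WT Prol and at 27.4, 20.8 and 31.2 CPM in KO Prol, and on average over the states it fell by 0.69 (SE 0.16, adjusted p = 1.00, limma) on the log2 scale. The adjusted p with the block was 0.0539. The call at Prol remained with any library left out, that for the average was lost without the replicate 2 libraries (from -0.81 to -0.58 over all such fits), and that at D0 was lost without WT D0 replicate 1, KO D0 replicate 2, or the replicate 1 or 3 libraries. The median log2 fold change of the 23 genes for the average over the states was -0.0045 and that of all genes -0.0032, compared with 0.0995 for the 10 genes above, *Col15a1* included. At D2 with the block, 3 of the 23 were called, against 1.21% of all genes, and no adjusted p among the 23 was under 0.05. They were *Fbln2* and *Tinagl1*, at 0.98 and 0.65 on the log2 scale, and *Npnt*, at -0.70, with adjusted p-values of 0.633, 0.539 and 0.867 (limma).

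Between Prol and D2 in WT, 3 of the 23 were called higher and 2 lower, near the 10.8% and 12.8% of all genes. *Sparc*, a collagen-binding matricellular protein, rose by 1.68 (SE 0.36), *Npnt*, an integrin ligand, by 1.65 (SE 0.48) and *Lama5* by 0.86 (SE 0.29), with adjusted p-values of 0.00224, 0.0161 and 0.0304 (limma), whereas *Tinagl1*, a secreted matrix protein, had a log2 fold change of -1.78 (SE 0.41, adjusted p = 0.00384, limma). The rise of *Lama5* in WT was not called without the replicate 3 libraries. Of the 9 of 10 laminin and collagen IV receptor genes measured, 1 was called higher and 1 lower in both genotypes. Of all genes, 10.8% and 12.8% were so called in WT and 11.3% and 13.7% in KO. Between the genotypes 0 of the 9 were called, near the share of all genes, 0.113% to 0.464% in the 3 states. With the block *Itga6*, a laminin-binding integrin chain, met the criteria at D2 (-0.79, adjusted p = 0.939, limma), 1 of 9 against 1.21% of all genes. *Fbln2* and *Itga6* are named for these calls, after their values were seen. *Itga7*, the integrin chain that binds laminin on muscle fibres and is also among the myoblast markers, rose by 4.72 (SE 0.36) in WT and 4.13 (SE 0.36) in KO, and *Itga3*, a laminin-binding chain, had log2 fold changes of -2.16 (SE 0.34) and -2.24 (SE 0.34). Of the 18 genes of collagen biosynthesis and crosslinking, 0 differed between the genotypes by the criteria in any state. This is near the share of all genes, 0.113% to 0.464%. Called higher at D2 were 3 in WT and 4 in KO, against 10.8% and 11.3% of all genes. They included *P3h1* and *P3h3*, prolyl hydroxylases, and *Loxl2*, which crosslinks collagen IV, at 1.15, 0.95 and 1.66 on the log2 scale in WT. The call of *P3h1* in WT was lost without WT D2 replicate 1 or the replicate 3 libraries.

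The median log2 fold change to D2 in WT was 1.14 over the 10 genes, 0.60 over the 23, 1.1995 over the 9 receptors and 0.37 over the 18 biosynthesis genes, and -0.01 over all genes.

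The 3 genes whose log2 CPM was most like that of *Col15a1* over the 18 libraries were *Adgre5* (Pearson r = 0.928), an adhesion G protein-coupled receptor, and the matrix genes *Thbs2* (0.869) and *Efemp1* (0.868). After subtraction of the mean of each state they were *Adgre5* (0.854), the prostaglandin transporter *Slco2a1* (0.823) and the peptidase *Dpep1* (0.811). The other 9 basement membrane genes had lower values: *Col4a1* had r = 0.62, *Nid2* 0.62, *Col4a2* 0.59 and *Col18a1* 0.06. After the subtraction the highest of the 9 was *Nid1* with 0.51, which ranked 126th, followed by *Col4a1* with 0.38, which ranked 346th. The lowest of the 9 was *Lama2* with -0.08, which ranked 7104th. These are descriptions over libraries that share group and replicate number. *Adgre5*, like *Col15a1*, had its highest WT value in replicate 3 of each state, at 6.20, 7.14 and 16.9 CPM, and differed from it in the size of the genotype difference, 0.77 on average against 1.68. *Dpep1* had an average of 1.68, which came from replicates 1 and 2: at D2, for example, it was at 1.38, 5.70 and 7.94 CPM in WT and at 22.6, 21.2 and 6.06 CPM in KO, and in replicate 3 it was at 2.61 and 2.68 CPM at Prol and at 2.29 and 2.37 CPM at D0.

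Of the adipocyte markers, 4 of 5 were measured, and *Adipoq* was not analysed here. Their summed level overlapped between the genotypes at Prol (19.4 to 32.7 CPM in WT and 23.1 to 52.4 in KO) and D0 (15.5 to 31.8 and 18.98 to 50.8 CPM) but not at D2 (6.24 to 13.5 and 16.1 to 22.9 CPM). The sum was mostly *Pparg* (3.21 to 28.7 CPM) and *Fabp4* (0.76 to 30.8 CPM), since *Plin1* reached at most 0.90 CPM and *Cidec* 0.46 CPM. *Pparg* and *Fabp4* met the criteria for a higher average in KO (0.59, SE 0.21, and 1.25, SE 0.55, both adjusted p = 1.00, limma). Over all genes 0.385% met them in either direction. In 21 fits that left out a library or a replicate number the *Pparg* call was kept in 12 and the *Fabp4* call in 11. Summed fibroblast markers without *Col1a1* were 253 to 309 CPM in WT D2 and 249 to 448 CPM in KO D2, which overlapped. Summed smooth muscle and pericyte markers (6 of 7 measured, without *Myh11*) were 265 to 705 CPM in the Prol and D0 libraries and 776 to 1856 CPM at D2. Over the 18 libraries *Acta2* was at 172 to 1415 CPM, *Pdgfrb* at 36.9 to 361, *Notch3* at 19.5 to 133 and *Cspg4* at 1.64 to 32.4 CPM. *Rgs5* and *Kcnj8* reached at most 1.57 and 0.42 CPM, so the sum does not stand for the whole list. The part of these cell type markers in the genotype difference of *Col15a1* was not tested.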

How the data were processed

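RNA was sequenced in 18 libraries, and groups and replicate numbers were taken from the labels. The authors trimmed reads with cutadapt 1.12, mapped them with NextGenMap 0.5.2 to the GRCm38 transcriptome, estimated expected counts with RSEM 1.2.19, computed TMM factors with edgeR and deposited CPM, (expected count + 0.5) relative to the scaled library total, which is another unit than counts. Expected counts were recovered from these values. Of those under 20, 36.0% to 49.1% were whole within 0.01, so no count test was used.

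Log2 of the deposited CPM was fitted with limma 3.58.1 in R 4.3.3 (lmFit, eBayes with trend) for 6 groups over 18 libraries and the 17672 genes that exceeded 5 expected counts in each library of 1 group or more. The call criteria, given with the results, use a 1.5-fold change, which is lower than the log2 fold change of 1.5 that the study's methods state; the latter was run as an alternative added after seeing the data. The replicate number was added as a block as an alternative. As a check of pairing, same-numbered libraries deviated together from their group means over all genes, with a correlation over 0.1 for all 3 replicates in each comparison except WT D2/Prol (0.0393 for replicate 3), so the numbers were taken to pair the libraries in the other comparisons. Of all 45 pairs of same-numbered libraries, 40 had a correlation over 0.1, and the lowest was -0.036. The block was fitted over all 6 groups at once, so every call with it also rests on the pairs that did not vary together. Positions and exon lengths are from GENCODE M21, and promoter windows, available for 7 of the 10 genes, from RefSeq. The fit was tested on simulated data without an effect of the replicate number, so that test does not cover the spread between replicate numbers seen here. Figures were drawn with matplotlib 3.10.9.

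The members, lists and tests were chosen with earlier results of these data known. Named genes are the 10 members, *Tmpo*, of 3 further lists those called between genotypes or with the largest changes in WT D2/Prol at an adjusted p under 0.05, the 3 genes most like *Col15a1* by each of 2 measures among genes with at least 10 CPM in 1 library, and cell type markers. Alternatives were voom weights, library totals, median-of-ratios scaling, no filter, a pseudocount of 1, calls at an adjusted p under 0.05, fits of only the compared groups, and each library left out. Depth was 26437823 to 41619016 expected counts, and 3 counts correspond to the detection floor, which covers counting error only.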

Additional observations from a re-analysis of the deposited data

How the results depend on the processing

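Alternatives that combine voom weights, no filter and a random term for the replicate number, or the block with library totals, those that leave out 1 replicate number in every group or a library under the block, and a log2 fold change over 1.5 were chosen after seeing the data. The replicate block changed the number of genes called, of the 9 without *Col15a1*, from 0 to 1 in KO/WT D0, from 0 to 4 in KO/WT D2 and from 0 to 2 for the average over the states, and of all 10 from 3 to 7 in KO D2/Prol and from 3 to 6 in WT D2/Prol (adding *Col4a1*, *Col4a2* and *Lama2*; 12.5% of all genes were called higher there), where the numbers did not pair the libraries by the check used. It changed no other count of calls. With the block and library totals the counts were 1, 3, 2, 7 and 6, and with voom and the random block 0 in KO/WT D0, where *Col4a1* was not called, 2 in KO/WT D2 (*Col18a1* and *Nid1*, without *Col4a1* and *Col4a2*), 2 for the average, 6 in KO D2/Prol and 6 in WT D2/Prol. Fitting only the groups compared gave 1 in KO/WT D2 and 5 in KO D2/Prol, and library totals alone gave 5 in KO D2/Prol. Library totals moved the median of all genes by 0.15 in WT D2/Prol and 0.156 in KO D2/Prol on the log2 scale. The causes of these changes were not tested.

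With single libraries or replicate numbers left out, the counts ranged from 0 to 1 in KO/WT D2 (1, *Col18a1*, without replicate 1), from 0 to 2 for the average (*Nid1* without WT D0 replicate 1, *Col4a1* and *Col4a2* without replicate 1), from 0 to 1 in WT D0/Prol (*Col15a1* without WT Prol replicate 3), from 2 to 4 in WT D2/Prol and from 3 to 5 in KO D2/Prol. Under the block and with single libraries left out, the counts were 1 to 4 in KO/WT D2, 0 to 3 in KO/WT D0, 0 to 1 in KO/WT Prol (*Nid1* without WT Prol replicate 3) and 1 to 3 for the average, 5 to 7 in KO D2/Prol and in WT D2/Prol (*Col18a1* added without WT Prol replicate 2, *Lama4* lost without WT D2 replicate 1, *Lama2* lost without WT D2 replicate 2), 0 to 1 in WT D0/Prol (*Col15a1* without WT Prol replicate 3) and 0 to 1 for the genotype difference of D2/Prol (*Col18a1* without WT Prol replicate 2, *Nid1* without KO D2 replicate 3). *Col15a1* kept its direction between the genotypes in every alternative, from 1.15 to 2.11 for the average.

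Fold changes near 0 turned direction. *Lama4* in KO/WT D2 was 0.005 and became -0.015 with voom weights, -0.012 with library totals, -0.00507 with median-of-ratios scaling, -0.00692 with a pseudocount of 1 and -0.00519 with voom and the random block, and with library totals *Lamc1* became 0.051 in WT D2/Prol and 0.074 in KO D2/Prol and *Col18a1* 0.014 in KO D2/Prol. With libraries left out, log2 fold changes that turned direction ranged for the average over the states from -0.50 to 0.041 (*Col18a1*), -0.41 to 0.19 (*Lama2*), -0.57 to 0.13 (*Lama4*), -0.075 to 0.30 (*Lamb1*), -0.11 to 0.31 (*Lamc1*) and -0.14 to 0.33 (*Nid2*). In KO/WT D2 they ranged from -0.49 to 0.25 (*Lama2*), -0.83 to 1.198 (*Lama4*), -0.34 to 0.67 (*Lamb1*), -0.52 to 0.76 (*Lamc1*) and -0.29 to 0.94 (*Nid2*). In WT D2/Prol they ranged from -0.48 to 0.36 (*Lamb1*), -0.74 to 0.28 (*Lamc1*) and -0.36 to 0.48 (*Nid1*), and in KO D2/Prol from -0.39 to 0.27 (*Col18a1*), -0.36 to 0.42 (*Lamb1*), -0.70 to 0.32 (*Lamc1*) and -0.042 to 1.19 (*Nid1*). Voom weights alone, median-of-ratios scaling, no filter, a pseudocount of 1, calls at an adjusted p under 0.05 and a log2 fold change over 1.5 as the fold criterion changed no count of calls. With 3 libraries in a group, differences as large as those of *Col4a1* and *Nid1* between genotypes were not separable from the spread between libraries without the block and with all libraries kept. With the block both met the criteria for the average, but at adjusted p-values of 0.38 and 0.364 (limma), and the *Col4a1* call depended on single libraries.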
